A study of Mus musculus with 6 samples.

Results

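The 9 genes described here encode the receiving side of Hedgehog signalling: the receptor Ptch1, the decoy receptor Hhip, the co-receptors Boc, Cdon and Gas1, the signal transducer Smo and the transcription factors Gli1, Gli2 and Gli3. They were chosen by name, and every probe set annotated with 1 of these symbols and no other was taken, which gave 24 of the 45101 probe sets of the array and all 9 genes of the 18194 genes tested. Expression was measured with 1-colour arrays in branchial arch 1, the embryonic tissue of the jaws, dissected from mouse embryos at embryonic day 11.5. A first group of 3 arrays came from embryos labelled Wnt1Cre Ezh2lox/lox (labelled mutant), in which a Cre recombinase driven by Wnt1 sequences is intended to remove Ezh2 from neural crest cells and their descendants. The other 3 came from Ezh2lox/lox embryos (labelled control), so that all 6 embryos were homozygous for the lox allele of Ezh2 and only the labelled-mutant ones carried Cre. Each array held the RNA of 1 arch of 1 embryo, in which cells outside the Wnt1-Cre lineage, such as epithelium, endothelium, blood and muscle precursors, would keep Ezh2.

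Hedgehog ligands are secreted proteins that bind Ptch1 and thereby release Smo from inhibition, after which Gli2 and Gli3 are converted at the primary cilium from repressors or inactive forms into activators. Boc, Cdon and Gas1 present the ligand to Ptch1 and raise sensitivity to it, while Hhip binds ligand without signalling. Ptch1, Hhip and Gli1 are themselves classical transcriptional targets of the pathway, whereas Boc, Cdon and Gas1 are known to be repressed by it in several tissues. In the face, Sonic hedgehog made by epithelium signals to the neural crest mesenchyme and is needed for its survival and growth. Ezh2 is the catalytic subunit of Polycomb repressive complex 2, which methylates histone H3 and acts mostly at CpG-rich promoters.

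Promoter sequences are shown for the co-receptor Cdon, which fell in the labelled-mutant arches, for the co-receptor Gas1, whose groups did not overlap but whose change did not pass, and for the receptor Ptch1, whose groups overlapped. They are RefSeq sequences of GRCm38.p6, covering 250 bases before and 50 bases after an annotated start, with CpG dinucleotides in capitals. They lie at chr9:35451826-35452125 on the plus strand for Cdon, at chr13:60177486-60177785 on the minus strand for Gas1 and at chr13:63565686-63565985 on the minus strand for Ptch1.
Cdon: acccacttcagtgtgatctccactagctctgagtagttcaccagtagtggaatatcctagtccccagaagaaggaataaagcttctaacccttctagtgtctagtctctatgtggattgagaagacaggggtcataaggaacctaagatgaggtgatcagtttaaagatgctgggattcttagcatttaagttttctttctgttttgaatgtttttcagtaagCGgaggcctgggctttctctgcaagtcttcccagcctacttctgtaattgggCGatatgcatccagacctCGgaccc
Gas1: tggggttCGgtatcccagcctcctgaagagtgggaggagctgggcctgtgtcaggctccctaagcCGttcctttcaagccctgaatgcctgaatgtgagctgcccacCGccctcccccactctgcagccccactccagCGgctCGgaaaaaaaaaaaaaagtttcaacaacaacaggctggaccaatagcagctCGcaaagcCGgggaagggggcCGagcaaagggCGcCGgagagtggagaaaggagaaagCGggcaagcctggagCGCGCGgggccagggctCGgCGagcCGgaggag
Ptch1: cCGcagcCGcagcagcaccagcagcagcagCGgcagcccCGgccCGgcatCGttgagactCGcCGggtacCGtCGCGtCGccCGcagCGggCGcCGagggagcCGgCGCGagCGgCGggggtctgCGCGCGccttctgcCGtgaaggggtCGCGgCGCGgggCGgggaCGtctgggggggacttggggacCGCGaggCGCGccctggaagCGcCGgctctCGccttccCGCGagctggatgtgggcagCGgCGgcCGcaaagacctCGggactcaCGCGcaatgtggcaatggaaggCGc
Of the 9 genes 7 had an entry in the RefSeq promoter table, and Boc and Gli1 were not among them. The start used for Gas1 is the 5′ end of the gene. Those for Cdon and Ptch1 lie 30548 and 7725 bases inside the annotated genes, so that these are internal starts. The CpG counts of these internal windows do not describe the 5′ ends of Cdon and Ptch1. The Cdon window held 3 CpG, the Gas1 window 17 and the Ptch1 window 47, against a median of 7 over the 32851 promoters of the table, and 76.7%, 31.4% and 1.44% of those promoters held at least as many. Among the other members with an entry, Smo had 17, Gli2 28, Hhip 30 and Gli3 39 CpG. The starts used for Gli2 and Hhip lie 786 and 52 bases inside the genes. The Gli binding motif GACCACCCA, searched on both strands, was found in 0 of the 7 windows and in 0.253% of all promoters of that length, which says only that these letters are not in these windows.

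The arrays carried 2 features that bear on every direction given here. The targeted gene Ezh2 averaged 11.66 ± 0.01 in the labelled-mutant and 11.63 ± 0.15 in the labelled-control arches (log2 signal, SD, n = 3 each), a difference of 0.03 that was not past the threshold (limma, adjusted p = 0.906). The position of its probe set relative to the deleted exons is not known here, so that it checks neither label. The Hox gene Hoxa9, a gene that Polycomb keeps silent in the normal jaw arch, averaged 4.21 ± 0.36 in the labelled-mutant and 11.28 ± 0.37 in the labelled-control arches, opposite to what loss of a repressor would give on textbook knowledge, so that the groups are called by their labels throughout. Xist, made from the inactive X chromosome, averaged 13.03 ± 0.10 in the labelled-mutant and 5.62 ± 0.15 in the labelled-control arches, so that embryo sex and label cannot be told apart. All 6 arrays had the same distribution, with a 25th percentile of 4.33 and a median of 5.81. Of 11 markers of arch 1 mesenchyme measured, 0 lay below the 25th percentile on all 6 arrays, and their summed linear signal was 22963 to 24842 in the labelled-mutant and 20619 to 22980 in the labelled-control arches.

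Among the 9 genes, the co-receptors Boc and Cdon and the factor Gli1 fell in the labelled-mutant arches, no gene rose, and 6 did not pass the test. Boc averaged 7.47 ± 0.27 in labelled-mutant and 8.92 ± 0.23 in labelled-control arches, Cdon 9.71 ± 0.11 and 10.29 ± 0.08, and Gli1 8.16 ± 0.04 and 8.58 ± 0.14 (log2 signal, SD, n = 3 each). Thus 3 of 9 members passed an adjusted p of 0.05 (limma, Benjamini-Hochberg over 18194 genes), where 5.53% of all genes did so and 4.3% were lower. The arrays of both groups did not overlap for 5 of the 9, namely these 3, Gas1 and Gli3, against 24.9% of all genes. The median change of the 9 genes was -0.06 on the log2 scale, beside 0.02 over all genes. The direction of each change rests on the labels.

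**Figure D1:**
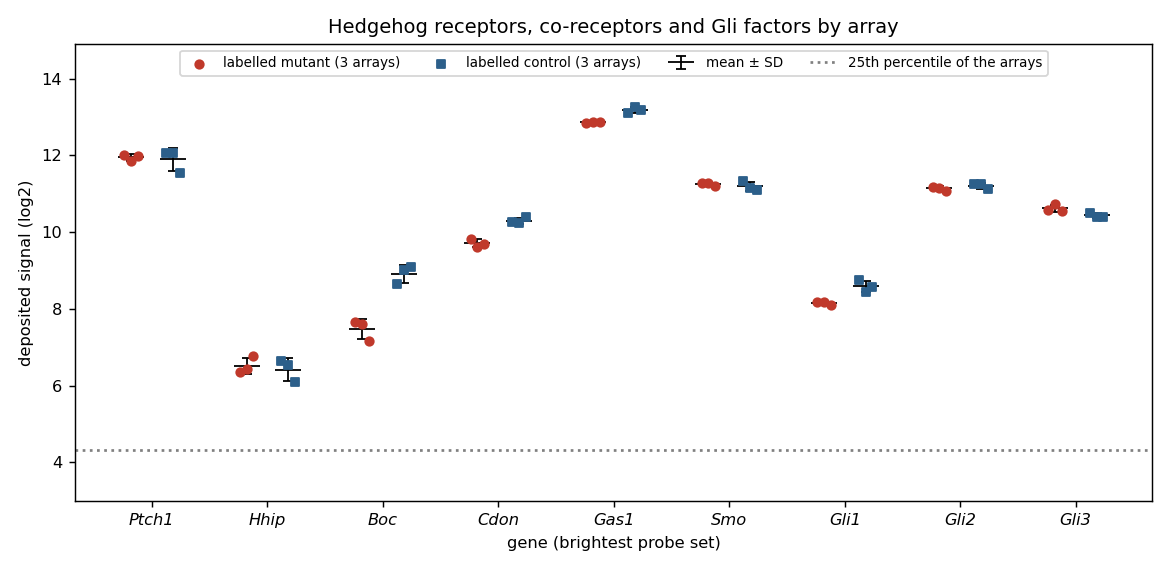
Deposited log2 signal of the brightest probe set of each of the 9 genes, with labelled-mutant arrays as red circles left of labelled-control arrays as blue squares, black bars for mean ± SD (n = 3) and a dotted line at the 25th percentile of the arrays (4.33). The groups separate clearly for Boc and Cdon and by less for Gli1, Gas1 and Gli3, while those of Ptch1, Hhip, Smo and Gli2 overlap.

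Boc, an immunoglobulin and fibronectin repeat protein of the cell surface, read 7.655, 7.594 and 7.165 in the labelled-mutant arches, against 8.653, 9.018 and 9.089 in the labelled-control arches on its brightest probe set. All 3 labelled-mutant arrays lay about 1 log2 unit or more below every labelled-control array. Boc fell by 1.45 on the log2 scale, with a standard error of 0.16 and a 95% confidence interval of -1.80 to -1.09, a 2.73-fold lower level (limma, adjusted p = 0.0015). Boc had the 107th lowest change of the 18194 genes. A further probe set, 1426869_at, read 7.279, 6.87 and 6.64 in labelled-mutant and 8.723, 8.809 and 8.741 in labelled-control arches. This second probe set changed by -1.83 ± 0.15 (standard error), again with no overlap. The remaining one, 1427517_at, averaged 3.37 ± 0.07 in labelled-mutant and 3.37 ± 0.08 in labelled-control arches, below the 25th percentile on all 6 arrays, so that it cannot show a change of the gene. Boc passed the threshold at gene level under all 15 alternatives run, with changes between -1.58 and -1.09 and adjusted p between 5.85e-04 and 0.0494.

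Cdon, a relative of Boc with the same domain plan, read 9.821, 9.613 and 9.688 in the labelled-mutant arches, against 10.26, 10.23 and 10.38 in the labelled-control arches. The groups did not overlap, and the gap between the nearest arrays was wider than the range within either group. Cdon fell by 0.58 on the log2 scale, with a standard error of 0.09 and a 95% confidence interval of -0.78 to -0.39, a 1.5-fold lower level (limma, adjusted p = 0.0062). Its other probe set, 1421452_at, read 6.525, 6.595 and 6.596 in labelled-mutant and 6.514, 6.476 and 6.467 in labelled-control arches. All labelled-mutant arrays were slightly higher there, and the change of 0.09 was not past the threshold over all probe sets (limma, adjusted p = 0.672). With the mean of both probe sets in place of the brightest, Cdon changed by -0.25 and missed the threshold (limma, adjusted p = 0.0694).

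Gas1, a membrane-anchored co-receptor unrelated in structure to Boc and Cdon, read 12.85, 12.88 and 12.88 in the labelled-mutant arches, against 13.09, 13.25 and 13.17 in the labelled-control arches. Every labelled-mutant array was below every labelled-control array. The change was -0.30 with a standard error of 0.08, and although the 95% confidence interval for this gene alone ran from -0.47 to -0.13, it did not pass after adjustment over all genes (limma, adjusted p = 0.0593). A further probe set, 1448494_at, read 11.07, 11.09 and 11 in labelled-mutant and 11.11, 11.56 and 11.7 in labelled-control arches. There the groups did not overlap, although the first labelled-control array lay close to the labelled-mutant ones. The change of -0.40 was not past the threshold over all probe sets (limma, adjusted p = 0.271). Without that array it was -0.58 and passed (limma, adjusted p = 0.0344), and with any other array left out it did not pass. The dimmest, 1456322_at, averaged 6.79 ± 0.06 in labelled-mutant and 6.66 ± 0.25 in labelled-control arches, with overlap. Gas1 passed at gene level in 3 of 15 alternatives, among them trend and robust variance settings (limma, adjusted p = 0.0148).

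The receptor Ptch1 did not separate the groups. Its brightest probe set read 12.02, 11.84 and 11.97 in the labelled-mutant arches, against 12.07, 12.06 and 11.55 in the labelled-control arches. The labelled-control array 3 was the lowest of all 6, and the other 5 lay within a narrow band. The change was 0.05 with a 95% confidence interval of -0.27 to 0.37 (limma, adjusted p = 0.898), and without labelled-control array 3 it was -0.12 (adjusted p = 0.494). Probe set 1439663_at read 6.444, 6.331 and 6.688 in labelled-mutant and 6.703, 6.661 and 5.727 in labelled-control samples, with that same array lowest. The third probe set of Ptch1 averaged 5.37 ± 0.11 in labelled-mutant and 5.28 ± 0.06 in labelled-control arches.

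The decoy receptor Hhip was measured by 4 probe sets, and 0 passed the threshold. The brightest read 6.353, 6.421 and 6.759 in the labelled-mutant arches, against 6.63, 6.543 and 6.087 in the labelled-control arches, with labelled-control array 3 again lowest. Its change was 0.09 with a 95% confidence interval of -0.27 to 0.45 (limma, adjusted p = 0.824), and it was -0.08 without that array. The other 3 probe sets had means between 4.81 and 5.10 in either group, below the arrays' median, and changes of -0.14, -0.06 and 0.09.

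Smo, the seven-pass membrane protein that carries the signal inward, read 11.27, 11.27 and 11.2 in the labelled-mutant arches, against 11.32, 11.15 and 11.1 in the labelled-control arches. The groups overlapped, with a change of 0.06 and a 95% confidence interval of -0.13 to 0.25 (limma, adjusted p = 0.783). The probe set 1427048_at gave -0.01 and the dim probe set 1442215_at gave 0.16, neither past the threshold. With each array left out in turn the change ran from 0.01 to 0.12 on the brightest probe set and from 0.0072 to 0.37 on 1442215_at.

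Of the Gli factors, Gli1 fell, and Gli2 and Gli3 did not pass. Gli1, an activator whose transcription depends on the pathway, read 8.179, 8.185 and 8.111 in the labelled-mutant arches, against 8.739, 8.452 and 8.562 in the labelled-control arches on its single probe set. The labelled-mutant arrays lay close together and below all labelled-control arrays. Gli1 fell by 0.43 on the log2 scale, with a standard error of 0.09 and a 95% confidence interval of -0.63 to -0.22, a 1.34-fold lower level (limma, adjusted p = 0.0308). The call was lost without labelled-mutant array 1 (adjusted p = 0.0784), 2 (0.106) or 3 (0.142), without labelled-control array 3 (0.0586), with floored signals (0.0855) and with adjustment over all 45101 probe sets (0.0719). It was also lost with the replicate number as a block (0.0710), all with limma, and over the 15 alternatives the adjusted p ran from 0.0243 to 0.142 while the change stayed negative.

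Gli2, the main activator in most tissues, read 11.18, 11.16 and 11.08 in the labelled-mutant arches, against 11.24, 11.24 and 11.11 in the labelled-control arches. The ranges overlapped, the change was -0.06 with a 95% confidence interval of -0.23 to 0.12 (limma, adjusted p = 0.761), and the second probe set, 1446086_s_at, gave -0.05. Gli3, the main repressor, read 10.57, 10.73 and 10.55 in the labelled-mutant arches, against 10.51, 10.4 and 10.4 in the labelled-control arches. These arrays did not overlap, but the change of 0.18, with a 95% confidence interval of -0.0078 to 0.37, did not pass (limma, adjusted p = 0.289). Probe set 1456067_at of Gli3 read 10.41, 10.31 and 10.58 in labelled-mutant and 10.2, 10.26 and 9.724 in labelled-control arches. Its change of 0.37 did not pass either, and labelled-control array 3 was the lowest of the 6 here too, without which the change was 0.20. The dim probe set 1450525_at of Gli3 averaged 4.49 ± 0.06 in labelled-mutant and 4.34 ± 0.18 in labelled-control arches, with overlap. Its change of 0.15 was not past the threshold over all probe sets (limma, adjusted p = 0.596). These signals are levels of mRNA and do not show how much Gli2 or Gli3 protein is in activator or repressor form.

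**Figure D2:**
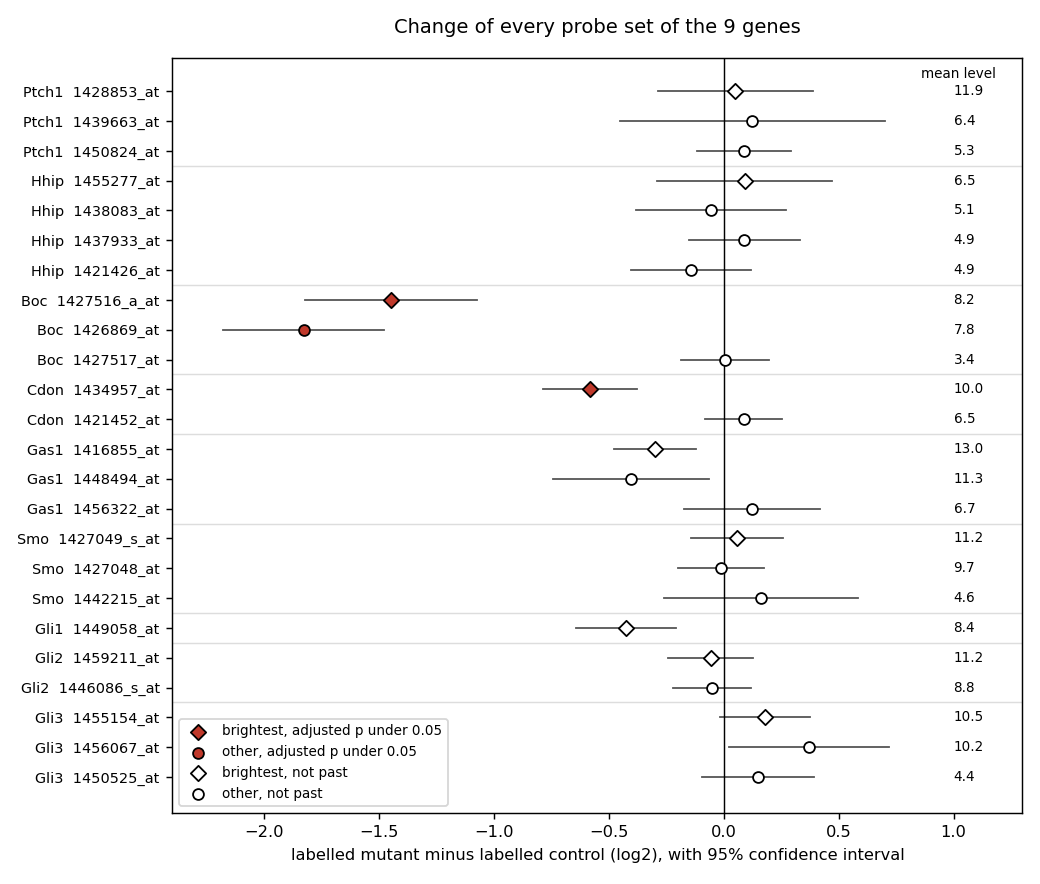
Change of each of the 24 probe sets (labelled mutant minus labelled control, log2) with its 95% confidence interval, diamonds for the brightest probe set of a gene and circles for the others, red where limma's adjusted p over all 45101 probe sets was under 0.05, and the mean level over the 6 arrays at the right. The red symbols are 2 probe sets of Boc and 1 of Cdon, while 1 further probe set of each of these genes lies near 0, and Gli1, called over genes, is not called over probe sets.

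Of all 24 probe sets, 3 passed when the adjustment ran over the 45101 probe sets of the array, all lower, where 2.14% of all probe sets passed and 1.77% passed as lower. They were the brighter 2 of Boc and the brightest of Cdon. The call of this Cdon probe set was lost with the replicate block (limma, adjusted p = 0.0696), without labelled-mutant array 2 (0.104) or 3 (0.104) and without labelled-control array 2 (0.0501), and with floored signals all 3 calls were lost (0.0510 to 0.0859). Of the 24 changes 11 were negative and 13 positive. Whether probe sets of 1 gene disagreed was tested on the difference between the brightest and each other probe set within an array. Of 15 such pairs of these genes 2 passed (limma, Benjamini-Hochberg over 16764 pairs), where 1.1% of all pairs did. The pair of Boc with 1427517_at passed (difference in change -1.45 ± 0.15, standard error, limma, adjusted p = 0.0041). It was set aside, because 1427517_at lay below the 25th percentile on all 6 arrays, whereas the share over all pairs includes dim probe sets. Among the remaining 14, 1 differed in its change. It was the brightest of Cdon against 1421452_at (difference in change -0.67 ± 0.12, standard error, adjusted p = 0.0473). The 2 bright probe sets of Boc were not shown to differ (0.38 ± 0.15, adjusted p = 0.407), nor were the brightest of Gas1 and 1456322_at (-0.42 ± 0.16, adjusted p = 0.386). The call for the pair of Cdon was lost under every alternative run for the pairs, with adjusted p between 0.0563 and 0.236 (limma).

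The ligand, transduction and cilium lists held 0 genes past the threshold. Shh, the ligand of the facial epithelium, read 9.365, 9.553 and 9.842 in the labelled-mutant arches, against 9.669, 9.585 and 9.712 in the labelled-control arches. The groups overlapped, and the change of -0.07 had a 95% confidence interval of -0.34 to 0.20 (limma, adjusted p = 0.824). Of 8 genes for ligands and their release 0 passed with limma, against 3 at an unadjusted p under 0.05, with a median change of 0.08. Among them the ligands Ihh and Dhh changed by 0.21 and 0.13, and Scube3, of a family that helps release the ligand, by -0.26. Ihh and Dhh lay below the arrays' median of 5.81 on all 6 arrays. Of 18 genes of transduction 0 passed, against 1 at an unadjusted p under 0.05, with a median of 0.02. Sufu, the main intracellular inhibitor of Gli proteins, changed by 0.09, Evc, which acts with Smo at the cilium, by -0.26, and the protein kinase A subunit gene Prkaca by -0.14. Of 18 genes of the primary cilium 0 passed, against 4 at an unadjusted p under 0.05, with a median of -0.0047 and the largest test statistics for Intu at 0.29 and Ofd1 at -0.23. Over all genes 5.53% passed the threshold and 18.7% had an unadjusted p under 0.05, and the median change was 0.02.

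Genes reported elsewhere as Hedgehog targets in face, limb or neural tube moved in both directions. There were 5 falls and 2 rises among the 22 measured, against 4.3% lower and 1.23% higher over all genes. The other 15 missed the threshold, and the median change was -0.20. At an unadjusted p under 0.05 (limma) lay 12 of the 22, against 18.7% of all genes, in a list chosen with earlier results known. Hsd11b2, a steroid-inactivating enzyme, read 9.076, 9.31 and 9.496 in labelled-mutant and 10.77, 10.94 and 10.11 in labelled-control arches, and fell by 1.31 (limma, adjusted p = 0.0081). The Wnt inhibitor Sfrp1 fell by 0.68, the forkhead gene Foxf2 by 0.51 and the insulin-like growth factor binding protein Igfbp4 by 0.40. The neural homeobox gene Nkx6-1 fell too, at 4.38 ± 0.06 in labelled-mutant and 4.92 ± 0.21 in labelled-control arches (SD, n = 3 each), levels so near the 25th percentile of 4.33 that the size of its fall is not known. In the other direction Snai1, a repressor of epithelial genes, rose by 0.92 and the growth regulator Mycn by 0.61. The cell cycle gene Ccnd1 changed by -0.07 and the forkhead gene Foxf1 by -0.38, and Osr2, a palate regulator, by -1.05, none of them past the threshold. The 3 genes of the preceding sentence were picked with their values in view. The number of falls was 2 without labelled-mutant array 2, without labelled-mutant array 3 or without labelled-control array 2, and 8 without labelled-control array 3. It was 3 with the replicate block or with averaged probe sets, and 1 with floored signals. The number of rises was 1 without labelled-mutant array 2 or labelled-control array 2, with averaged probe sets or with dim genes left out, and 0 with floored signals. Dim genes that are left out are not tested, so that a lower count in that setting need not be a lost call.

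**Figure D3:**
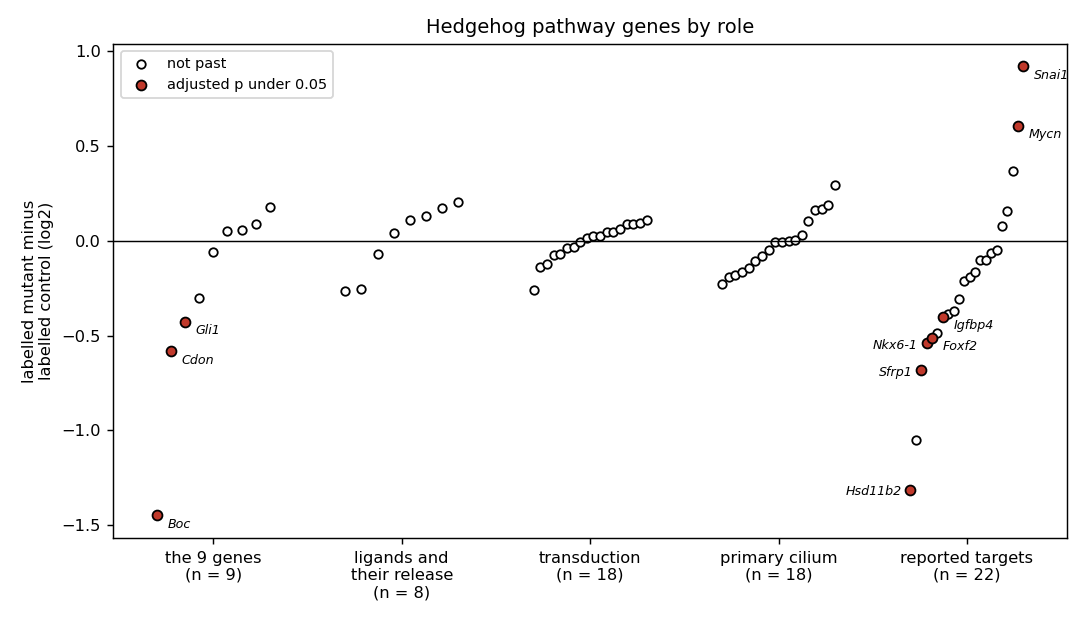
Change of each measured gene (labelled mutant minus labelled control, log2, brightest probe set), sorted within the 9 genes and 4 lists of the wider pathway, red and named where limma's adjusted p over all genes was under 0.05. Calls lie among the 9 genes (3 lower) and the reported targets (5 lower, 2 higher), and the ligand, transduction and cilium lists stay between -0.26 and 0.29.

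Some markers of other cell types passed the threshold as well, where 4.3% of all genes passed as lower and 1.23% as higher. A list with 1 call is not read as a change of its cell type. In whole-arch RNA fewer cells of a type and less RNA per cell cannot be told apart. Of 12 muscle markers 5 fell and 0 rose, with a summed linear signal of 819 to 1582 in the labelled-mutant and 1882 to 2718 in the labelled-control arches. Of 10 neuronal markers 5 fell and 0 rose, with sums of 1903 to 2447 in the labelled-mutant and 3286 to 3875 in the labelled-control arches. Of 5 markers of crest-derived glia 2 fell, with sums of 572 to 689 in the labelled-mutant and 765 to 1327 in the labelled-control arches. Of 8 neuroepithelial markers 2 fell, Lhx2 by 1.20 and Sox2 by 0.67, with sums of 1061 to 1126 in the labelled-mutant and 1212 to 1881 in the labelled-control arches. The median change of that list was -0.03, and Nes and Fabp7 changed by -0.12 and -0.72, not past the threshold. Pax6, Sox1, Sox3 and Hes5 changed by 0.16, 0.14, 0.11 and 0.06, not past it either. The neuroepithelial list is therefore not read as a change of its cell type. Of 7 macrophage markers 1, Ptprc, fell, with sums of 827 to 1052 in the labelled-mutant and 1088 to 1327 in the labelled-control arches. Of 6 erythroid markers 1, Slc4a1, fell, with overlapping sums of 51878 to 56636 in the labelled-mutant and 54886 to 65117 in the labelled-control arches. Boc and Cdon are known to be expressed in muscle precursors and neural tissue as well as in mesenchyme, and the part of these cells in their falls was not tested. Of 12 epithelial markers 1, Krt8, rose and 0 fell, with overlapping sums of 5985 to 6061 in the labelled-mutant and 4783 to 7385 in the labelled-control arches, and 1 of them, Ovol1, lay below the 25th percentile on all 6 arrays. Of 10 endothelial markers 0 passed with limma, and 0 did so at an unadjusted p under 0.05. Among mesenchymal markers of arch 1, 5 rose and 1 fell: Dlx5 rose by 1.18 and Pdgfra fell by 0.63.

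For each member past the threshold, the 3 genes with the most similar profile were sought among 16330 named genes, by the Euclidean distance between mean-centred log2 values over the 6 arrays. For Boc these were the T-box gene Tbx4 (distance 0.31), Tex15 (0.32) and the retinoic acid synthesis gene Aldh1a2 (0.32), which changed by -1.52, -1.49 and -1.40. For Cdon they were Arsb (0.083), the collagen gene Col3a1 (0.086) and Sgk3 (0.095), with changes of -0.60, -0.64 and -0.63. For Gli1 they were Rassf4 (0.083), Mbnl3 (0.089) and Man1c1 (0.089), with changes of -0.45, -0.46 and -0.40. The distances mostly reflect a like difference between the groups and are given as a description.

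**Figure D4:**
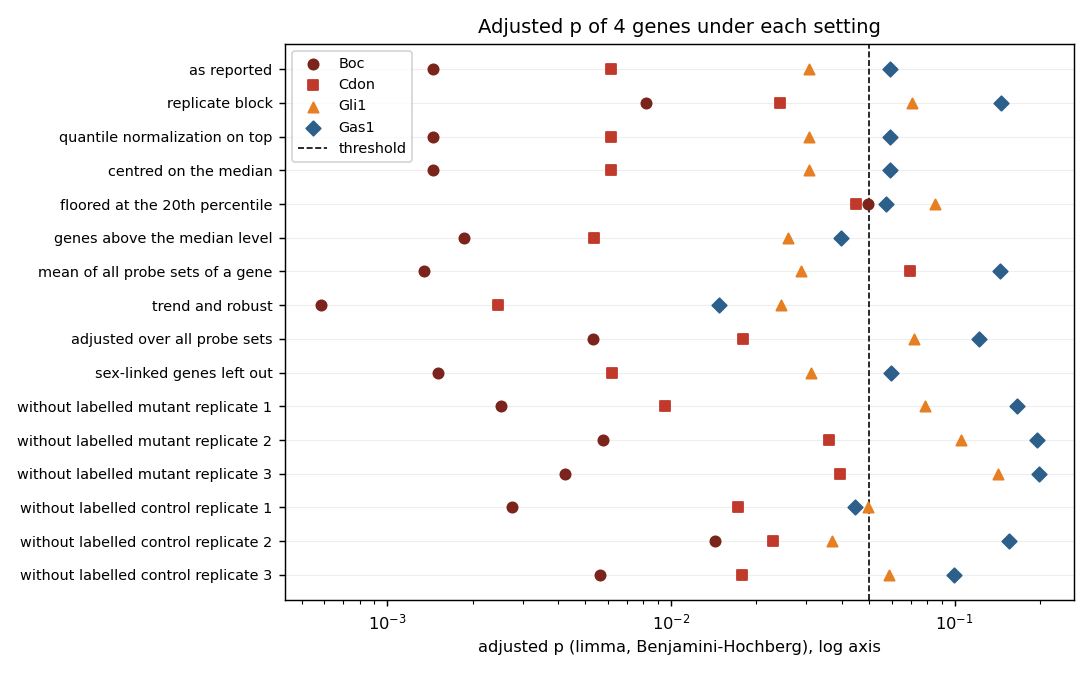
Adjusted p of Boc, Cdon, Gli1 and Gas1 (limma, log axis) as reported and under each of 15 alternative settings, with the threshold of 0.05 as a dashed line. Boc lies left of the line in all, Cdon in all but the mean of its probe sets, Gli1 on either side, and Gas1 right of it in all but 3 alternatives.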

How the data were processed

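Per the labels' protocols, RNA of 6 dissected arches received a biotin label, and the platform is a 1-colour Affymetrix array. The deposited signals are on a log2 scale, as inferred from their range, and all arrays share 1 distribution, so the authors' normalization hides a shift of all genes alike. Background correction, probe summary and software: not given in the sources used here. Arrays have no read depth, and their number limits precision. Names came from the platform's 2016 annotation (34958 probe sets with 1 symbol, 932 with several, 9211 with none). The brightest probe set, by its mean across arrays, stood for a gene. Labelled mutant minus labelled control was tested with limma 3.58.1 in R 4.3.3, without covariates, two-sided, across all genes, all probe sets or all pairs of a gene's probe sets, with Benjamini-Hochberg adjustment and a threshold of 0.05. Per the labels, replicates are biological, each from 1 embryo. In simulated data of 18194 genes with this design, 65.7% of changes of 0.5 (log2), 100% of changes of 1 and 100% of changes of 2 were recovered. Of the 192 calls 7.81% were false. The simulation drew independent values with limma's own variances and changed 67, 67 and 66 genes by these sizes. Its rates therefore do not carry over to these arrays, where 1007 genes passed. Named are the 9 members, the genes of 4 pathway lists that passed (otherwise the 2 with the largest moderated t), Shh, Ihh, Dhh and Sufu, the 3 nearest profiles of each called member, and label checks; marker genes and others serve as examples. Members and lists were chosen with earlier results of these data known. Alternatives were a replicate block, quantile normalization, median centring, a floor at the 20th percentile, a filter on dim genes, averaged probe sets, trend and robust variance, adjustment across probe sets, no sex-linked genes, and each array left out.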

Additional observations from a re-analysis of the deposited data

How the results depend on the processing

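The number of members past the threshold was 3 as reported and between 2 and 4 under the 15 alternatives, while the number of all genes past it ran from 329 with floored signals to 1032 with trend and robust settings. Leaving out each array in turn gave 2 to 4 members and 2 to 4 probe sets. With floored signals 0 of the 24 probe sets passed, against 3. Flooring leaves features at the floor almost no spread. With it the standard errors of members moved both ways, at gene level from 0.075 to 0.045 for Gas1 and from 0.156 to 0.190 for Boc. Why calls were lost with floored signals was not tested. Gli1 missed the threshold at an unaltered change of -0.43 with the replicate block, with floored signals and with adjustment over all probe sets, and its change ran from -0.49 to -0.35 when arrays were left out. Cdon missed it with the mean of its probe sets (-0.25). Gas1 passed at -0.30 with dim genes left out and with trend and robust settings, and without labelled-control array 1 (-0.34, range -0.34 to -0.26 over arrays left out). Hhip, which did not pass in any alternative, reversed to -0.0045 when its probe sets were averaged, and ran from -0.0755 to 0.196 over arrays left out. Ptch1 ran from -0.12 to 0.14 in the same way. Among single probe sets that were not past the threshold, ranges over arrays left out that included both signs were -0.19 to 0.29 for Ptch1 1439663_at, -0.0425 to 0.031 for Smo 1427048_at, -0.0358 to 0.0407 for Boc 1427517_at, -0.0070 to 0.15 for Hhip 1437933_at and -0.15 to 0.10 for Hhip 1438083_at. The disagreement between the probe sets of Cdon (-0.67) missed the threshold with the replicate block, with floored signals and with trend and robust settings, with a range of -0.75 to -0.61 over arrays left out. The alternatives for pairs of probe sets and for list counts were chosen after seeing the data. Same-numbered arrays of both groups did not deviate together (correlations of -0.21, -0.12 and -0.07 over genes). Those of arrays with unlike numbers ran from -0.08 to 0.19. With 3 arrays per group these values cannot decide whether the numbers pair the samples. The replicate block gave 657 genes past the threshold, against 1007 without it. Boc kept its call in all alternatives at gene level. Hhip had no value where dim genes were left out. Signals below the 25th percentile hold mostly background, which limits what the dim probe sets can show.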
